A study of Mus musculus with 6 samples.

Results

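The genes examined were 10 genes of MHC class I antigen presentation: B2m, H2-D1, H2-K1, H2-Q4, H2-T23, Tap1, Tap2, Tapbp, Psmb8 and Psmb9. Each was followed through the probe set that carried its symbol alone, taking the one with the highest mean over all arrays where a gene had several. By that rule 7 of the 10 genes were measured, among 19938 genes in all. H2-K1, H2-D1 and H2-T23 lay only on probe sets that named several genes, and their values are given as those of the shared probe sets.

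Class I molecules are made of a polymorphic heavy chain and the invariant light chain β2-microglobulin, and they display short peptides on the cell surface to T cells and natural killer cells. Proteasomes cut the peptides in the cytosol, the TAP transporter pumps them into the endoplasmic reticulum, and tapasin helps load them onto new class I molecules. Interferons raise transcription of the whole pathway, and embryonic stem cells are known for low class I expression.

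The samples came from mouse embryonic stem cells derived through chromosome transfer. The 3 lines are ♂M-1, ♂M-3 and ZM-1, and each contributed 2 biological repeats, for 6 whole-transcript arrays in all. All lines had been grown on gelatin-coated plates with LIF, PD0325901, which blocks MEK, and CHIR99021, which blocks GSK3β. The labels do not spell out the prefixes ♂M and ZM, and give no strain, sex or treatment that separates the lines. With 1 ZM line, a difference between ZM-1 and the other lines cannot be told apart from one between kinds of line. What a p-value measures here is the spread between the repeats of a line, and no more.

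Array medians lay between 67.2 and 71.3 and lower quartiles between 23.8 and 25.1 intensity units. All 10 ES cell markers, Pou5f1 and Nanog among them, lay above the median of all genes in each line. Some of them differed between lines. Measured against ZM-1, ♂M-3 had 3 of the 10 called higher and 0 lower, while ♂M-1 had 1 higher and 0 lower. Relative to ♂M-3, ♂M-1 had 1 lower and 0 higher. Zfp42 had a mean of 671 in ♂M-3, beside 272 in ZM-1 and 291 in ♂M-1. Nanog was among the 3 called in ♂M-3 (log2 difference 0.28), but not with all probe sets tested (adjusted p = 0.0920, limma). Across the 19938 genes, 880 were called in ♂M-1 relative to ZM-1 (504 lower, 376 higher), 3162 in ♂M-3 relative to ZM-1 (1435 lower, 1727 higher) and 1303 in ♂M-1 relative to ♂M-3 (661 lower, 642 higher). When each array was centred on its median, the share of called genes that were higher went from 42.7% to 62.0% in ♂M-1 against ZM-1, and from 54.6% to 70.9% in ♂M-3 against ZM-1. The test was limma's moderated test on log2(intensity + 1), with p-values adjusted by the Benjamini-Hochberg method over all genes and a threshold of 0.05. Fold changes are on that scale.

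The stretch upstream of the start site is where the known control elements of class I genes lie, so the 250 bases before the annotated start are shown for the genes that differ in the motifs found there. Sequences are from RefSeq on GRCm38.p6, 5′ to 3′ on the strand of the gene. Capitals mark matches to the interferon regulatory factor core AANNGAAA, to the longer interferon-stimulated response element, which contains that core, or to the gamma-activated site TTCNNNGAA, on either strand. The windows are B2m (chr2:122147437-122147686, plus strand), H2-Q4 (chr17:35379367-35379616, plus strand), H2-K1 (chr17:34000348-34000597, minus strand), Tap1 (chr17:34187306-34187555, plus strand) and Psmb8 (chr17:34197945-34198194, plus strand).
B2m: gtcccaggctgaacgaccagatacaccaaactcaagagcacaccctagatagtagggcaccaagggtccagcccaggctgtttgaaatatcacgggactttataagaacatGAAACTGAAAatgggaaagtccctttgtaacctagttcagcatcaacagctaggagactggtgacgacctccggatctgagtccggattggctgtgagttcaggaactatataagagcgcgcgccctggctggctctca
H2-Q4: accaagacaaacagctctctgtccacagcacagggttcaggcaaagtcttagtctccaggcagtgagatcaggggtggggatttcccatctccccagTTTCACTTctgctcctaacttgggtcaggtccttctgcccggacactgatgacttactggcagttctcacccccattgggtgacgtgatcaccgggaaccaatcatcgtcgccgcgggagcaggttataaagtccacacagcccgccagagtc
H2-K1: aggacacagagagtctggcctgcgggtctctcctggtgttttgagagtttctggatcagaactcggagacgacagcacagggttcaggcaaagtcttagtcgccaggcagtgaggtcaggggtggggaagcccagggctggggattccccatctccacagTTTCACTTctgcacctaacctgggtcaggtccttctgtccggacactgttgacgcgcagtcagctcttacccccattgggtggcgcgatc
Tap1: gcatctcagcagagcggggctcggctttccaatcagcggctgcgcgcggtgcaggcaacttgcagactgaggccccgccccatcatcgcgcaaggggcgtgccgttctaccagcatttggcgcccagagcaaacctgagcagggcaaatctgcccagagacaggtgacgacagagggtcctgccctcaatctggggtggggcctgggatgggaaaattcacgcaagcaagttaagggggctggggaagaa
Psmb8: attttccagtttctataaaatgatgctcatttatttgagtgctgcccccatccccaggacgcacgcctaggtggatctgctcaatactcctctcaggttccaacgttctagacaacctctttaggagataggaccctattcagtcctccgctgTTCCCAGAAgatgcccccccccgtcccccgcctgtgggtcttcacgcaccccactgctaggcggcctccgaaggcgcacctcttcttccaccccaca

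Of the 10 genes, 9 had such a window in the table used, and Tap2 did not. A gene is counted when any of its windows has a match, while the shares are of windows (32851 for 27025 symbols). The interferon regulatory factor core lay in 5 of the 9, namely B2m, H2-D1, H2-K1, H2-Q4 and H2-T23, against 21.3% of 32851 windows of the same length in the table. That core was added after these windows were read, so its count is a description and no excess can be read from it. H2-D1, H2-K1 and H2-Q4 have the same match, TTTCACTT, and are not separate cases. In B2m the capitals run from 139 to 130 bases before the start, in H2-Q4 from 153 to 146 and in H2-K1 from 90 to 83. A second annotated start of H2-K1, whose window is not shown, has the same match from 104 to 97 bases before it. The longer response element lay in 2 of 9 (B2m and H2-T23), against 2.98% of all windows, and the gamma-activated site in 1 of 9 (Psmb8, from 97 to 89 bases before the start), against 7.02%. The NF-kB site lay in 6 of 9 against 45.8% of windows. CCAAT lay in 8 of 9 against 33.8%, and TGACGT in 1 of 9 (H2-Q4) against 6.47%. Tap1 and Psmb9 are read in opposite directions from start sites 226 bases apart and share 225 bases of their windows. The shared stretch has CCAAT and NF-kB matches and none to the 3 interferon motifs. Those matches are the same bases, counted for both genes. The H2-D1, H2-K1 and H2-Q4 windows are also alike, so the CCAAT and NF-kB counts are not of 9 separate cases. A match here is a description of letters and not a bound site.

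ZM-1 had the highest mean and ♂M-3 the lowest in 7 of the 7 measured genes, with ♂M-1 between them. In ♂M-3 against ZM-1, 7 of 7 passed the test as lower, against 7.2% of all genes called as lower, 8.66% as higher and 15.9% in either direction. In ♂M-1 against ZM-1, 3 of 7 were lower (H2-Q4, Tapbp and Psmb9), against 2.53% of all genes as lower, 1.89% as higher and 4.41% in either direction. Between the ♂M lines, 5 of 7 were higher in ♂M-1, against 3.22% of all genes as higher, 3.32% as lower and 6.54% in either direction. Both ♂M-1 arrays lay below both ZM-1 arrays in 7 of 7 genes, as in 25.9% of all genes, and both ♂M-3 arrays did so in 7 of 7, as in 27.4%. Both ♂M-1 arrays lay above both ♂M-3 arrays in 6 of 7, as in 21.6%. The median log2 difference of the 7 was −0.31 for ♂M-1 against ZM-1, −0.89 for ♂M-3 against ZM-1 and 0.43 for ♂M-1 against ♂M-3, beside −0.01, 0.00 and −0.02 over all genes. The 3 comparisons share lines and are not independent of each other. The count in ♂M-1 against ZM-1 fell to 1 without ♂M-1 replicate 2 and to 1 when all probe sets were tested together. The count between the ♂M lines fell to 2 when all probe sets were tested together, and lay between 2 and 5 when each array was left out in turn.

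**Figure D1:**
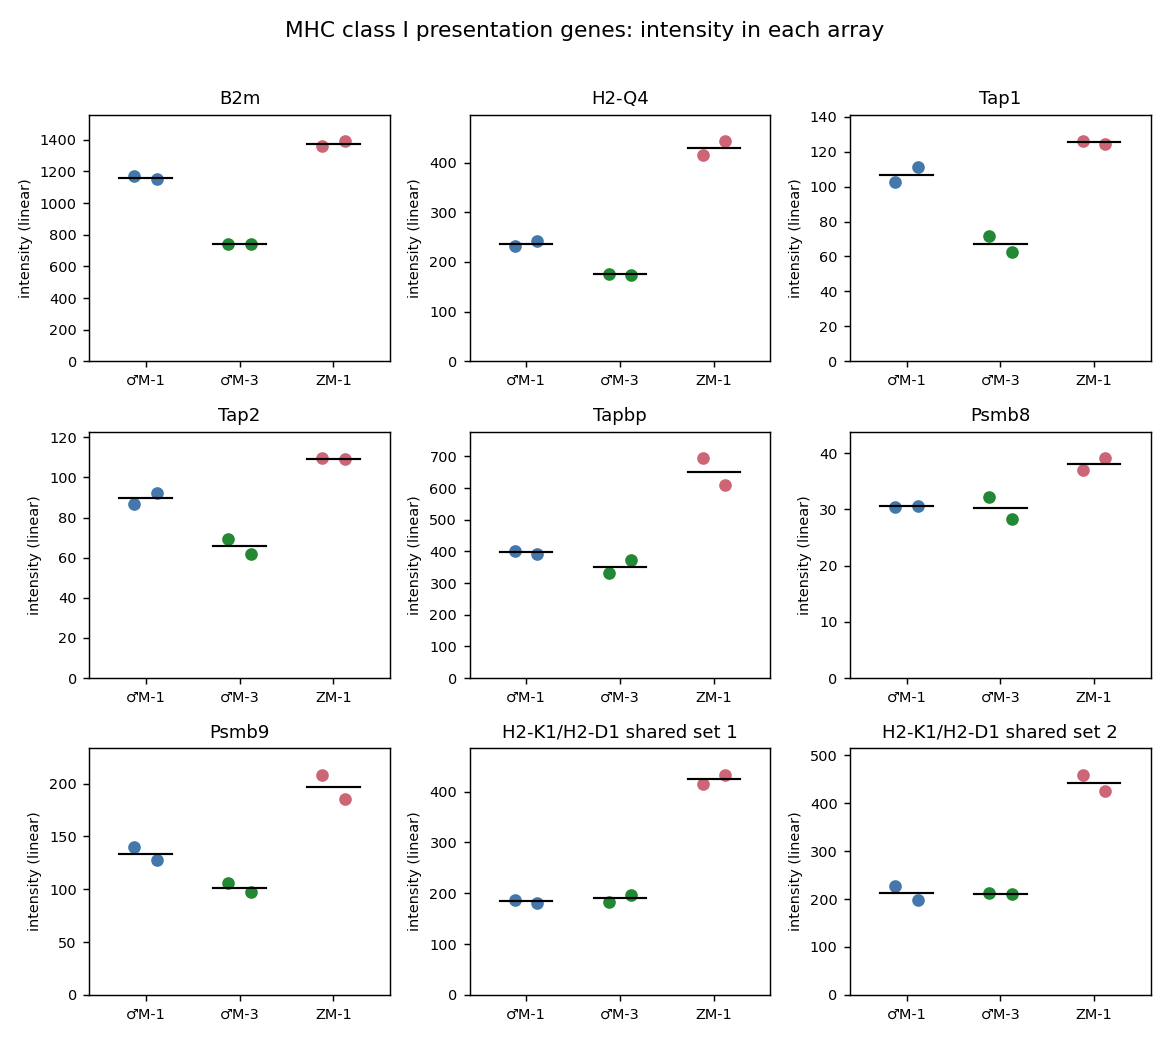
Intensity on a linear scale from 0 in each array for the 7 measured genes and for the 2 probe sets shared by H2-K1 and H2-D1; points are arrays and bars are the means of 2 repeats. Both ZM-1 points lie above all points of the other lines in each panel, while ♂M-1 and ♂M-3 lie apart in B2m and overlap in Psmb8.

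β2-microglobulin, the light chain of every class I molecule, is encoded by B2m on chromosome 2. Its intensities were 1171 and 1150.4 in ♂M-1, 742 and 740.4 in ♂M-3, and 1361 and 1391 in ZM-1. The 3 lines did not overlap, and ♂M-3 stood furthest from the others. B2m was 1.86-fold lower in ♂M-3 than in ZM-1 (log2 difference −0.89, SE 0.07, adjusted p = 1.13e-04, limma) and 1.56-fold higher in ♂M-1 than in ♂M-3 (0.65, SE 0.07, adjusted p = 0.00122). ♂M-1 and ZM-1 differed by −0.25 (SE 0.07, adjusted p = 0.0978), which missed the threshold. That difference passed under 3 other settings: a pseudocount of 16 (adjusted p = 0.0399), quantile normalization (0.0495) and an intensity trend in the variance (0.0135).

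The other measured genes lie on chromosome 17. H2-Q4, a class I heavy chain of the Q region, measured 232 and 241 in ♂M-1, 176 and 175 in ♂M-3, and 416 and 443 in ZM-1. The ♂M arrays were closer to each other than to ZM-1. ZM-1 exceeded ♂M-1 in H2-Q4 by 1.81-fold (log2 difference of ♂M-1 from ZM-1 −0.86, SE 0.08, adjusted p = 4.46e-04, limma). It was 2.44-fold lower in ♂M-3 (−1.29, SE 0.08, adjusted p = 2.36e-05), the largest difference among the 7 genes. Between the ♂M lines it was 1.35-fold higher in ♂M-1 (0.43, SE 0.08, adjusted p = 0.0112). That last call was lost without ♂M-1 replicate 2 (0.106), ♂M-3 replicate 1 (0.0775) or ♂M-3 replicate 2 (0.0838), and with all probe sets tested (0.0672). H2-Q genes are close copies of each other, so some signal may come from neighbours.

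H2-K1 and H2-D1 encode the classical heavy chains and were read together by 2 probe sets that name both. The first measured 187 and 182 in ♂M-1, 183 and 197 in ♂M-3, and 415 and 433 in ZM-1. The second measured 227 and 198, 213 and 210.4, and 459.7 and 425 in the same order. In both, the ♂M lines overlapped each other and lay far below ZM-1. In the fit over all 35556 probe sets, the first fell 2.29-fold below ZM-1 in ♂M-1 (log2 difference −1.20, SE 0.08, adjusted p = 0.00695) and 2.23-fold lower in ♂M-3 (−1.15, SE 0.08, adjusted p = 0.00258). The second was 2.08-fold lower in ♂M-1 (−1.06, SE 0.09, adjusted p = 0.0177) and 2.09-fold lower in ♂M-3 (−1.06, SE 0.09, adjusted p = 0.0058). Between the ♂M lines the differences were −0.04 (95% interval −0.23 to 0.15, adjusted p = 0.882) and 0.00 (−0.23 to 0.23, adjusted p = 0.997). How each probe set divides between H2-K1 and H2-D1 is not known from these values.

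H2-T23 encodes the nonclassical heavy chain Qa-1, a ligand of NKG2 receptors on natural killer cells. Its probe set, shared with H2-T-ps, measured 80.9 and 75.1 in ♂M-1, 68.0 and 72.7 in ♂M-3, and 80.8 and 84.0 in ZM-1. The ♂M-1 and ZM-1 arrays overlapped and the ♂M-3 arrays were lowest. It passed the test in no comparison (adjusted p = 0.683 for ♂M-1 against ZM-1, 0.161 for ♂M-3 against ZM-1 and 0.496 between the ♂M lines). The difference of ♂M-3 from ZM-1 was −0.23 with a 95% interval from −0.42 to −0.03.

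Tap1 and Tap2 encode the paired chains of the peptide transporter. Tap1 measured 103 and 111 in ♂M-1, 71.7 and 62.8 in ♂M-3, and 126 and 125 in ZM-1. Tap2 measured 86.8 and 92.5, 69.5 and 61.9, and 109.7 and 109 in the same order. In both genes the arrays of the 3 lines were separate, and ♂M-1 lay nearer to ZM-1 than to ♂M-3. Tap1 was 1.85-fold lower in ♂M-3 than in ZM-1 (log2 difference −0.89, SE 0.09, adjusted p = 3.03e-04, limma), and Tap2 1.66-fold lower (−0.73, SE 0.08, adjusted p = 7.12e-04). Against ZM-1, ♂M-1 differed by −0.23 in Tap1 (adjusted p = 0.192) and by −0.29 in Tap2 (adjusted p = 0.0985), and neither passed. Between the ♂M lines Tap1 was 1.58-fold higher in ♂M-1 (0.66, SE 0.09, adjusted p = 0.00309) and Tap2 1.36-fold higher (0.44, SE 0.08, adjusted p = 0.0158). The Tap2 call was lost with all probe sets tested (0.0915), without ♂M-1 replicate 1 (0.0517) or 2 (0.138), and without ♂M-3 replicate 2 (0.133).

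Tapbp encodes tapasin, which bridges the transporter and the class I heavy chain. It measured 403 and 392 in ♂M-1, 333 and 372 in ♂M-3, and 695 and 609 in ZM-1. The ♂M arrays lay close together and both below ZM-1. Relative to ZM-1, Tapbp was 1.64-fold lower in the ♂M-1 arrays (log2 difference −0.71, SE 0.09, adjusted p = 0.00374, limma) and 1.85-fold lower in ♂M-3 (−0.89, SE 0.09, adjusted p = 4.27e-04). The call in ♂M-1 was lost without ♂M-1 replicate 2 (0.0528) and with all probe sets tested (0.0524). The ♂M lines differed by 0.18 with a 95% interval from −0.03 to 0.39 (adjusted p = 0.352). A further 2 probe sets named Tapbp together with the ribosomal protein gene Rps3a1; they lay between 2369 and 3282 and passed in no comparison.

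Psmb8 and Psmb9 encode catalytic subunits of the immunoproteasome, which replace constitutive subunits after interferon exposure. Psmb9 measured 139.5 and 128 in ♂M-1, 106 and 97.1 in ♂M-3, and 208 and 185 in ZM-1. Its lines did not overlap. Relative to ZM-1, Psmb9 was 1.47-fold lower in the ♂M-1 arrays (log2 difference −0.55, SE 0.09, adjusted p = 0.0123, limma), 1.93-fold lower in the ♂M-3 arrays (−0.95, SE 0.09, adjusted p = 2.72e-04) and 1.31-fold higher in ♂M-1 than in ♂M-3 (0.39, SE 0.09, adjusted p = 0.0372). The first of these calls was lost without ♂M-1 replicate 2 (0.115) and with all probe sets tested (0.0817). The last was lost without ♂M-1 replicate 1 (0.182) or 2 (0.118), ♂M-3 replicate 1 (0.0999) or 2 (0.233), and with all probe sets tested (0.152).

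Psmb8 lay near the lower quartile of the arrays, at 30.5 and 30.6 in ♂M-1, 32.3 and 28.4 in ♂M-3, and 37.1 and 39.1 in ZM-1. The ♂M lines overlapped, and both ZM-1 arrays were higher. It was 1.25-fold lower in ♂M-3 than in ZM-1 (log2 difference −0.32, SE 0.09, adjusted p = 0.0333, limma), and differed by −0.31 in ♂M-1 (adjusted p = 0.0816) and by 0.01 between the ♂M lines (95% interval −0.18 to 0.21, adjusted p = 0.958). The call in ♂M-3 was lost when arrays were centred on their medians (0.0513), with all probe sets tested (0.0948), without either ♂M-1 array (0.0560), without ♂M-3 replicate 2 (0.219) and without ZM-1 replicate 1 (0.0558) or 2 (0.124).

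**Figure D2:**
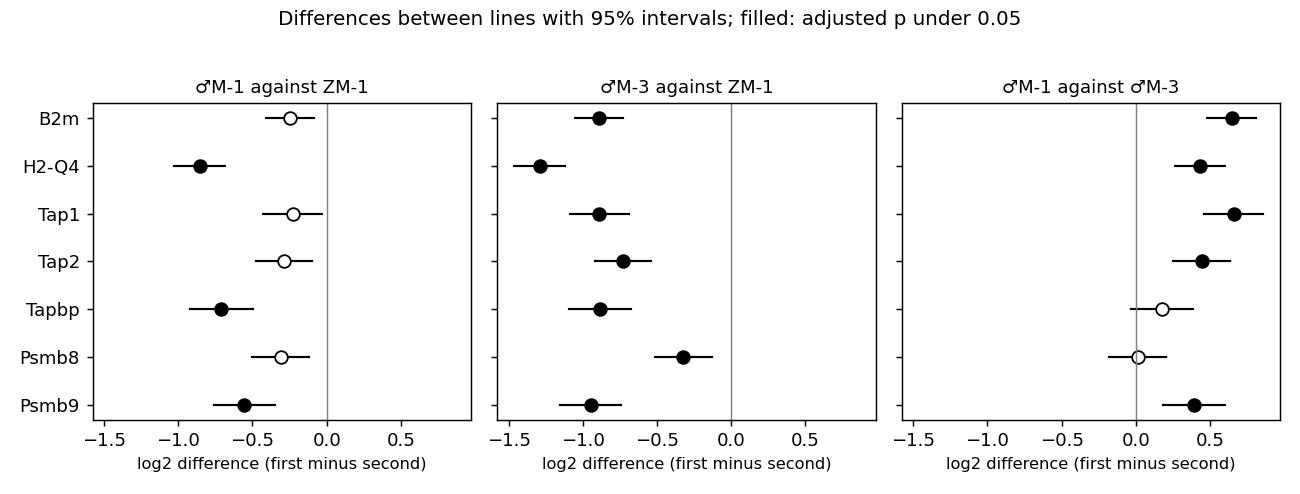
Log2 differences between lines for the 7 measured genes, with 95% intervals from the fit; filled points have adjusted p under 0.05. All 7 points are filled and below 0 for ♂M-3 against ZM-1, 3 are filled for ♂M-1 against ZM-1, and 5 are filled above 0 for ♂M-1 against ♂M-3.

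The place of ♂M-1 between the other lines varied from gene to gene. On the log2 scale, with ♂M-3 at 0% and ZM-1 at 100% of the way, ♂M-1 stood at 74.3% for Tap1, 72.5% for B2m and 60.9% for Tap2. It stood at 41.6% for Psmb9, 33.6% for H2-Q4, 19.8% for Tapbp and 4.33% for Psmb8. The shared H2-K1 and H2-D1 probe sets stood at −3.61% and 0.207%. B2m and the transporter genes were thus nearer to ZM-1, and H2-Q4, tapasin and the shared H2-K1 and H2-D1 probe sets nearer to ♂M-3, whereas the H2-T23 set, at means of 78.0, 70.3 and 82.4, was nearer to ZM-1. Differences between genes in this place were not tested. Over the 6 arrays, each gene's log2 values had a Pearson r with the mean of the other 6 genes between 0.840 (Psmb8) and 0.982 (Psmb9). The arrays fall into 3 pairs, so these values mostly describe the line means.

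Other genes of the pathway moved in part. Over all genes, 2.53% were called lower and 1.89% higher in ♂M-1 against ZM-1, and 7.2% lower and 8.66% higher in ♂M-3 against ZM-1. In ♂M-1 against ♂M-3 these shares were 3.32% and 3.22%. Of the other class I heavy chains, 18 of 27 were measured, with 4 lower and 0 higher in ♂M-1 against ZM-1, 4 lower and 0 higher in ♂M-3 against ZM-1, and 0 called by limma between the ♂M lines (3 at an unadjusted p under 0.05). The first count was 2 without ♂M-1 replicate 1 or 2, the second 2 without ♂M-3 replicate 2, and both were 2 with all probe sets tested. H2-Q5, a further Q-region heavy chain, measured 162 and 145 in ♂M-1, 129.8 and 125 in ♂M-3, and 288 and 254 in ZM-1. It was 1.76-fold below ZM-1 in ♂M-1 (log2 difference −0.81, adjusted p = 0.00172, limma) and 2.12-fold lower in ♂M-3 (−1.08, adjusted p = 1.37e-04). The other 3 called were H2-M2, which lay below the lower quartile in every line (at most 23.9 in any array), H2-Q2 and H2-T10. The calls of H2-Q2 and H2-T10 were lost under several settings, including all probe sets tested (adjusted p = 0.106 and 0.184 in ♂M-1, 0.109 and 0.0740 in ♂M-3).

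Class I-like molecules were measured for 8 of 16 genes, with 0 called by limma in ♂M-1 against ZM-1 (1 at an unadjusted p under 0.05, and 1 called without ♂M-1 replicate 1), 3 lower in ♂M-3 against ZM-1 and 1 higher in ♂M-1 than in ♂M-3. The 3 lower became 1 lower and 1 higher without ♂M-3 replicate 1, where Mr1 had adjusted p = 0.0537 and Procr 0.0748, and the count of 1 rose to 3 without either ZM-1 array. Of all genes, 4.41% were called in ♂M-1 against ZM-1, 7.2% were lower in ♂M-3 against ZM-1, and 3.22% were higher in ♂M-1 than in ♂M-3. Raet1d, a ligand of the activating receptor NKG2D, measured 66.6 and 50.9 in ♂M-1, 28.7 and 30.7 in ♂M-3, and 84.0 and 79.2 in ZM-1. It was 2.69-fold lower in ♂M-3 than in ZM-1 (log2 difference −1.43, adjusted p = 1.29e-04, limma). It was 1.93-fold higher in ♂M-1 than in ♂M-3 (0.95, adjusted p = 0.00228). Raet1 genes are near-identical, and the value may be shared among them.

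In the remaining loading and trimming machinery, 13 of 14 genes were measured. In ♂M-3 against ZM-1, 2 were lower and 1 higher, beside the 15.9% called over all genes. In ♂M-1 against ZM-1 and between the ♂M lines 0 were called by limma (2 and 3 at an unadjusted p under 0.05). Erap1, the aminopeptidase that trims peptides in the endoplasmic reticulum, measured 38.5 and 34.3 in ♂M-3 and 50.8 and 55.5 in ZM-1 (log2 difference −0.54, adjusted p = 0.00442, limma). Pdia3, the oxidoreductase ERp57 of the loading complex, was also lower in ♂M-3 (−0.39, adjusted p = 0.0210), and the cytosolic aminopeptidase Npepps was higher (0.34, adjusted p = 0.0142). Both calls were lost without ♂M-3 replicate 2 (0.154 and 0.0765) and without ZM-1 replicate 2 (0.0681 and 0.0515), which left 1 gene called. Pdia3 was also lost without ZM-1 replicate 1 (0.0554) and with all probe sets tested (0.0777), and Npepps without ♂M-3 replicate 1 (0.0875). The chaperones Calr and Canx and the tapasin relative Tapbpl did not pass in any comparison, with differences between −0.11 and 0.12.

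Of the 5 other inducible proteasome genes, 1 was lower and 0 higher in ♂M-1 against ZM-1, 1 lower and 1 higher in ♂M-3 against ZM-1, and 0 were called by limma between the ♂M lines (0 at an unadjusted p under 0.05). Against ZM-1, 2.53% of all genes were lower in ♂M-1, and 7.2% were lower and 8.66% higher in ♂M-3. Psme2, a subunit of the PA28 activator, measured 755 and 802 in ♂M-1, 715 and 881 in ♂M-3, and 1215 and 1159.6 in ZM-1. Relative to ZM-1 it was reduced in ♂M-1 (log2 difference −0.61, adjusted p = 0.0142, limma) and in ♂M-3 (−0.58, adjusted p = 0.00651). The call in ♂M-1 was lost without ♂M-1 replicate 1 (0.103) or 2 (0.0840), without ZM-1 replicate 1 (0.0513) and with all probe sets tested (0.0929). Psmb10, the third immunoproteasome catalytic subunit, differed by −0.40 in ♂M-1 (adjusted p = 0.0636) and −0.30 in ♂M-3 (0.0722), and Psme1 by −0.30 (0.0626) and −0.26 (0.0506). Pomp, the proteasome maturation factor, was higher in ♂M-3 (0.26, adjusted p = 0.0457), which no longer passed when any single array was left out (adjusted p from 0.0660 to 0.235), and Psme3 differed by 0.11 in each line (0.501 and 0.410). Of the 14 constitutive 20S genes, 0 were called by limma in ♂M-1 against ZM-1 and between the ♂M lines (1 and 1 at an unadjusted p under 0.05), and 1, Psmb5, was higher in ♂M-3 against ZM-1 (0.34, adjusted p = 0.0231). The Psmb5 call was lost with quantile normalization (0.0569), with all probe sets tested (0.0738), without ♂M-3 replicate 1 (0.0797) or 2 (0.140) and without ZM-1 replicate 2 (0.106), which left 0 called.

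Regulators of class I transcription were measured for 15 of 17 genes, with 2 lower in ♂M-1 against ZM-1, 2 lower in ♂M-3 against ZM-1, and 1 lower in ♂M-1 than in ♂M-3. The shares of all genes called as lower were 2.53%, 7.2% and 3.32% in the same order. Irf9, the DNA-binding subunit of the interferon-activated complex ISGF3, measured 209.7 and 211 in ♂M-1, 157 and 183 in ♂M-3, and 337 and 328 in ZM-1. It was 1.58-fold below ZM-1 in ♂M-1 (log2 difference −0.66, adjusted p = 0.0045, limma) and 1.96-fold lower in ♂M-3 (−0.97, adjusted p = 2.03e-04). The call in ♂M-1 was lost without ♂M-1 replicate 2 (0.0528) and with all probe sets tested (0.0538). Stat2, its partner in that complex, measured 275 and 245 in ♂M-1, 376 and 384 in ♂M-3, and 417 and 411 in ZM-1. It was lower in ♂M-1 relative to ZM-1 (−0.67, adjusted p = 0.00259), while ♂M-3 differed from ZM-1 by −0.12 (0.357). Its call below ♂M-3 (−0.55, adjusted p = 0.00529) was lost without ♂M-1 replicate 2 (0.0596) or ♂M-3 replicate 2 (0.0512) and with all probe sets tested (0.0508). Irf8, an interferon regulatory factor of blood cells, was the other gene called in ♂M-3 against ZM-1 (−0.29, adjusted p = 0.0456), and it too failed the test with each array left out in turn (adjusted p from 0.0537 to 0.233). Nlrc5, the class I transactivator, measured 361 and 354, 339 and 303, and 320 and 387, and passed in no comparison (adjusted p = 0.934, 0.432 and 0.473). Irf1 had adjusted p = 0.113 in ♂M-1 against ZM-1 and 0.0834 in ♂M-3 against ZM-1.

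Most of the interferon-stimulated genes were, like the class I genes, lower in both ♂M lines than in ZM-1. Of 18 measured of 20, 16 were lower and 0 higher in ♂M-1 against ZM-1, and 17 lower and 0 higher in ♂M-3 against ZM-1. The shares of all genes were 2.53% and 7.2% as lower, and 3.22% as higher and 3.32% as lower in ♂M-1 against ♂M-3. Between the ♂M lines 7 were higher and 1 lower in ♂M-1, counts that fell to 4 and 0 without ♂M-1 replicate 2, to 5 and 0 without ♂M-3 replicate 2, and to 4 and 0 with all probe sets tested. Irgm1, an immunity-related GTPase, measured 92.4 and 113 in ♂M-1, 26.1 and 39.7 in ♂M-3, and 696 and 755 in ZM-1. The median log2 differences of this list were −1.24, −1.34 and 0.35, beside −0.31, −0.89 and 0.43 for the 7 class I genes. Relative to ZM-1, ♂M-1 thus had a median close to that of ♂M-3 in this list, but not in the class I genes. The summed intensity of the interferon-stimulated genes was 4625 to 4769 in ♂M-1, 3277 to 3319 in ♂M-3 and 7754 to 8446 in ZM-1. The sums had the order of lines seen in the class I genes, but not each gene did. Ifitm3, a large part of each sum, had means of 2702, 2027 and 2547 in ♂M-1, ♂M-3 and ZM-1, highest in ♂M-1. In ♂M-1 against ♂M-3, 3 of the 18 log2 differences were below 0. The strong difference of these genes in the same arrays was already known when the list was drawn up, so the count is a description.

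Genes that lie among the class I genes in the MHC region of chromosome 17 but do not serve presentation had list medians above 0 against ZM-1. Of 53 measured of 57, 1 was lower and 2 higher in ♂M-1 against ZM-1, 2 lower and 13 higher in ♂M-3 against ZM-1, and 0 lower and 1 higher between the ♂M lines. The median log2 differences were 0.07, 0.15 and −0.08. Among all genes, 2.53% were lower and 1.89% higher in the first comparison, 7.2% and 8.66% in the second, and 3.32% and 3.22% in the third. Ier3, an early response gene of the region, measured 159 and 164 in ♂M-1, 149.7 and 166 in ♂M-3, and 89.2 and 82.2 in ZM-1 (log2 differences 0.90 and 0.87 against ZM-1, adjusted p = 6.60e-04 and 2.78e-04, limma). In ♂M-1 against ZM-1 the counts were 0 lower and 1 higher without ♂M-1 replicate 1 or 2, and the 1 between the ♂M lines became 0 without ♂M-1 replicate 2 or either ♂M-3 array. The count of 13 fell to 4 without ♂M-3 replicate 1, 3 without ♂M-3 replicate 2, 6 without ZM-1 replicate 2 and 4 with all probe sets tested, and rose to 21 with arrays centred on their medians.

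Markers of other cell types also differed between the lines. In RNA from whole cultures, fewer cells of a type and less RNA per cell cannot be told apart. Of 18 fibroblast markers, 3 were lower and 1 higher in ♂M-1 against ZM-1, 13 lower and 2 higher in ♂M-3 against ZM-1, and 11 higher and 1 lower in ♂M-1 than in ♂M-3. Among all genes, 2.53% were lower and 1.89% higher in the first comparison, and 7.2% and 8.66% in the second. In the third, 3.22% were higher and 3.32% lower. The summed intensity of the fibroblast markers was 15660 to 15770.5 in ♂M-1, 14498 to 14863 in ♂M-3 and 15582 to 15655 in ZM-1. Much of it came from Fn1, at means of 5379, 5494 and 5125 in that order, and from Vim, at 5196, 5318 and 5069. Dcn, a matrix proteoglycan of fibroblasts, measured 237 and 191 in ♂M-1, 96.5 and 112 in ♂M-3, and 596 and 546 in ZM-1. It had the lowest log2 differences of the list against ZM-1 (−1.42 and −2.44), beside list medians of 0.02 and −0.47. The markers called as higher went the other way, S100a4 in ♂M-1 (0.51) and ♂M-3 (0.44), and Fbln1 in ♂M-3 (0.70). The count of 13 fell to 8 and that of 11 to 7 without ♂M-3 replicate 2, and in ♂M-1 against ZM-1 1 marker was called without ♂M-1 replicate 2 or ZM-1 replicate 1.

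Of 15 measured blood and immune cell markers of 16, 3 were lower in ♂M-1 and 6 in ♂M-3 against ZM-1, 0 were higher, and 0 were called by limma between the ♂M lines (2 at an unadjusted p under 0.05). The summed intensity of these markers was 2010 to 2042 in ♂M-1, 2058 to 2169.6 in ♂M-3 and 2216 to 2489 in ZM-1. Much of it came from Laptm5, at means of 1050, 1166 and 1207 in that order. Against ZM-1, 2.53% of all genes were lower in ♂M-1 and 7.2% in ♂M-3, and 1.89% and 8.66% were higher. Lyz2, the lysozyme of myeloid cells, measured 39.7 and 82.6 in ♂M-1, 34.1 and 47.5 in ♂M-3, and 118 and 122 in ZM-1, and passed in ♂M-3 against ZM-1 (log2 difference −1.55, adjusted p = 0.00653, limma). Fcer1g, an Fc receptor subunit, measured 40.5 and 43.5, 38.7 and 37.9, and 77.4 and 72.3 in the same order, and passed in both lines against ZM-1 (−0.82 and −0.95, adjusted p = 7.16e-04 and 1.29e-04, limma). The adaptor Tyrobp (−0.64 and −0.73, adjusted p = 0.0328 and 0.00808, limma) and the macrophage marker Adgre1 (−0.76 in each, 0.00906 and 0.00358), which lay at no more than 24.2 in the ♂M arrays and 34.4 and 41.8 in ZM-1, passed in both as well. Ptprc, the pan-leukocyte marker CD45, lay near the lower quartile, at 30.4 and 30.5 in ♂M-1, 29.7 and 28.4 in ♂M-3, and 34.1 and 38.1 in ZM-1. It was among the 6 called in ♂M-3 (−0.30). That call was lost under several settings, including median centring (adjusted p = 0.0673, limma) and all probe sets tested (0.0968). Without ♂M-1 replicate 1 the first count was 1, with Tyrobp (0.188) and Adgre1 (0.0740) lost, and without ♂M-3 replicate 2 the second was 3, with Tyrobp (0.0624) lost. The Tyrobp call in ♂M-1 was also lost without ♂M-1 replicate 2 (0.123) or ZM-1 replicate 1 (0.108). With all probe sets tested the counts were 1 and 2. The fibroblast, blood and immune markers called against ZM-1 moved in part in the direction of the class I genes, and their part in the result was not tested.

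**Figure D3:**
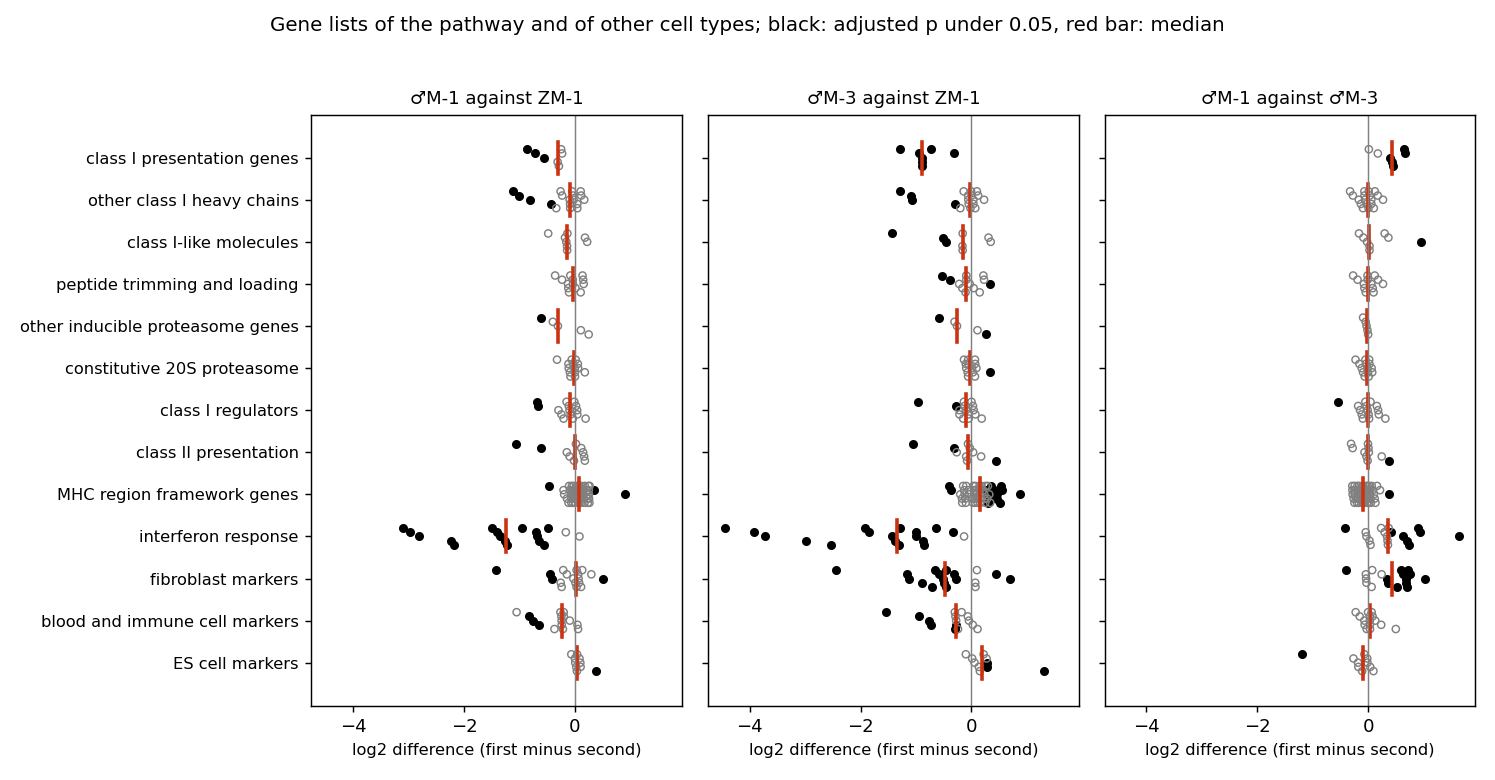
Log2 differences of the measured genes of 13 lists in the 3 comparisons; black points have adjusted p under 0.05, open points do not, and red bars are medians. Interferon response genes lie furthest below 0 against ZM-1. In ♂M-1 and ♂M-3 against ZM-1, class I presentation genes have medians of −0.31 and −0.89, and MHC region framework genes of 0.07 and 0.15.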

How the data were processed

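Expression was measured on 6 whole-transcript arrays, 2 biological repeats of each of 3 lines. RNA had been extracted with Trizol and labelled with a terminal labelling kit, per the labels' protocols. The authors deposited 1 linear intensity for each probe set on each array. GCOS 1.4 is named per the submitters' processing notes; how background, summarisation and normalization were handled is not given in the sources used here. Values were used without further normalization. Arrays have no counting depth, and their number limits the precision.

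Of 35556 probe sets, 21789 carried 1 symbol in the platform annotation, 1621 several and 12146 were absent from that table; RefSeq identifiers changed 0 symbols. The highest-mean probe set per gene gave 19938 genes. The log2(intensity + 1) values were fitted with a mean for each line with limma 3.58.1 in R 4.3.3 (3 residual and 6.01 prior degrees of freedom). Tests were two-sided, with Benjamini-Hochberg adjustment. Probe sets with several symbols were tested in a fit over all probe sets. The procedure was tested on simulated data.

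The genes and the 12 other lists were chosen with earlier results of these data known. The text names all 10 class I genes, at most 4 called genes of each list, taken from those with the largest differences, regulators or partners by their place in the pathway, and the 6 other genes most like the mean of the 7 measured class I genes (3 of the planned 10 were not measured). The shorter interferon motif AANNGAAA was added after the windows were read. Alternatives were another pseudocount, a low-value filter, quantile normalization, median centring, the mean of a gene's probe sets, all probe sets, a variance trend, a replicate block and leaving out each array; applying them to the lists was decided after seeing the data.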

Additional observations from a re-analysis of the deposited data

How the results depend on the processing

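The direction of the 21 class I differences held under each alternative run, except that Psmb8 between the ♂M lines, at 0.01, ranged from −0.0765 (without ♂M-3 replicate 2) to 0.104 (without ♂M-3 replicate 1). Of the settings tried on single genes, 265 kept direction and the side of the threshold, 25 lost a call, 3 gained one and 1 turned. The count of class I genes called was 3 for ♂M-1 and 7 for ♂M-3, each against ZM-1, and 5 between the ♂M lines; later values keep this order. With all probe sets tested it was 1 in the first and 2 in the last, where 35556 features were adjusted over and the prior degrees of freedom were 2.83. Leaving out each array in turn gave 1 to 3, 6 to 7 and 2 to 5; a lone array was then assumed to vary like the other lines. The count over all genes was 275, 2027 and 442 with all probe sets, 1632 in the first comparison with a variance trend, and 234 to 631, 1302 to 2750 and 357 to 1495 when arrays were left out. With a replicate block, 3, 6 and 5 class I genes and 686, 2769 and 1071 genes in all were called, and the Psmb8 call in ♂M-3 was lost (adjusted p = 0.0507, limma). Same-numbered repeats deviated with correlations of −0.03, 0.07 and −0.10, so the numbers do not pair the arrays. Without background levels, little can be said of genes near the lower quartile, such as Psmb8 and H2-M2.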

Other observations

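Some further shared probe sets of the class I region also lay lower in the ♂M lines than in ZM-1. The set shared by H2-Q6 and H2-Q8 measured 111 and 108 in ♂M-1, 99.3 and 91.3 in ♂M-3, and 176 and 162 in ZM-1, with log2 differences of −0.62 (adjusted p = 0.0487, limma over all probe sets) and −0.82 (0.00804) against ZM-1. The set shared by H2-T9, H2-T22 and H2-T10 measured 151 and 121, 90.8 and 97.4, and 179 and 166, and passed in ♂M-3 against ZM-1 (−0.87, adjusted p = 0.0204) but not in ♂M-1 (−0.35, 0.251). Sets shared by H2-Q1 and H2-Bl and by H2-T3 and H2-T18 passed in no comparison, and the latter had a higher mean in ♂M-1 than in ZM-1 (0.18).

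Among genes of class II presentation, 10 of 12 were measured, with 2 lower in ♂M-1, and 2 lower and 1 higher in ♂M-3, against ZM-1; the 2 lower in ♂M-3 became 1 with each array left out in turn, and the 1 higher became 0 without ♂M-3 replicate 2. Of all genes, 2.53% were lower in ♂M-1, and 7.2% were lower and 8.66% higher in ♂M-3, against ZM-1. The 1 higher was the class II chain H2-Ab1 (log2 difference 0.45). Between the ♂M lines 0 were lower and 1, H2-DMa, was higher in ♂M-1 (0.38), beside 3.32% and 3.22% of all genes. The calls of H2-Ab1 and H2-DMa were lost with all probe sets tested (adjusted p = 0.0520 and 0.146, limma). Ctss, the lysosomal protease that frees the class II groove, measured 22.8 and 27.9 in ♂M-1, 25.4 and 25.2 in ♂M-3, and 56.9 and 50.6 in ZM-1, and both differences from ZM-1 passed (−1.06 and −1.05, adjusted p = 8.76e-04 and 3.13e-04, limma).

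The 6 genes outside the list whose log2 values were most like the mean of the 7 class I genes over the 6 arrays were Znfx1 (Pearson r = 0.998), Clu (0.997), Lama3 (0.997), Pcmt1 (0.996), Actn4 (0.995) and Txlna (0.994). Pearson r takes no account of the size of a difference. Znfx1 was 1.23-fold lower in ♂M-3 than in ZM-1 (log2 difference −0.30, adjusted p = 0.0229, limma) and was not called in the other comparisons. Lama3, a laminin chain with a larger difference (−1.08 in ♂M-3 against ZM-1), measured 132 and 136 in ♂M-1, 97.1 and 96.6 in ♂M-3, and 205 and 207 in ZM-1. The likeness rests on 3 pairs of arrays.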
